A study of Rattus norvegicus with 3 samples.

Results

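The kidney of rats 5 days after thallium (Tl) administration was compared with the control kidney on 2 of the 3 Clariom S rat arrays of the series, 1 array per group, over 15037 genes that each had a single symbol. All such genes were kept and none was chosen by its value. The Tl 5 days group were male Wistar rats, 7 weeks old, given thallium(I) sulfate intraperitoneally and killed 5 days later. Control rats of the same strain, sex and age were given distilled water, and the Tl 2 days group, killed after 2 days, is shown only beside the other 2. The labels conflict. The sample titles and the study's methods name kidney, whereas another label and the extraction protocol name spleen. The dose is 30 mg/kg once in the study's methods, 30 mg/kg daily in the design text and 40 mg/kg daily in the treatment protocol. Some rats given Tl died before day 5 and were kept in the Tl 5 days group, and it is not stated whether an array held RNA of 1 rat or of several, or of a rat that had died. The rats had no transgene or other engineered allele in any source.

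Thallium(I) is a monovalent cation close to potassium in size and charge. It enters cells through potassium channels and pumps, binds the thiol groups of proteins, and accumulates in the kidney. Along the nephron, the proximal tubule takes back glucose, amino acids, phosphate and filtered protein and makes glucose during fasting. The thick ascending limb and the distal convoluted tubule reabsorb salt, calcium and magnesium, and the collecting duct sets the final content of water, potassium and acid.

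A value is a log2 signal of a probe set, as processed by the authors, so a difference of 1.0 is a 2-fold change. Where 3 signals of a gene are given, they are those of control, Tl 2 days and Tl 5 days, in this order, and a single value in brackets is, unless named otherwise, the 5-day difference from control on the log2 scale. With 1 array a side there is no replicate check, the spread between rats is unknown, no difference was tested and no p-value is given. Over all 15037 genes, 807 (5.37%) lay more than 2-fold above control after 5 days and 732 (4.87%) more than 2-fold below it. Weight was given to the 4675 genes above a log2 signal of 9.3 on either array, of which 495 (10.6%) were higher and 439 (9.39%) lower. Just inside this limit lay Siah1, Ascc2 and Rap2c (highest signals 9.3001, 9.3019 and 9.3023) and just outside it Papolg, Fbxl14 and Zkscan3 (9.2997, 9.2994 and 9.2991). Because a gene can pass the limit only on the array where it is high, the counts of gene lists below cover all measured members, and members below 9.3 are called dim. Among 173 probe sets above 9.3 whose identifiers mark negative controls, 18 (10.4%) were higher and 18 lower past 2-fold, shares close to those of the genes. A 2-fold difference of a single gene was thus about as frequent here as among the negative controls. Among 216 probe sets above 9.3 that mark positive controls, 13 (6.02%) were higher and 2 (0.926%) lower, so the kinds of control differed. Past 8-fold, 61 genes (1.30%) were higher and 66 (1.41%) lower, against 1 (0.578%) and 3 (1.73%) of the negative control probe sets. The same value stood on both arrays for 20.2% of all genes and for 8.53% of those above 9.3.

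The labelled tissue was checked against markers. On the control array the 32 measured genes of the early proximal tubule had a median log2 signal of 15.35, whereas the lists of T cells (12 measured genes) and B cells (8) had medians of 4.38 and 3.91, with Cd3e at 3.02 and Cd79b at 3.38. In the Tl 5 days group those medians were 15.47, 4.15 and 3.98.

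Many of the genes with the highest signals in the control kidney were lower after 5 days. Of the 25 highest, 12 were over 2-fold lower and 0 higher, and of the 100 highest, 36 were lower and 4 higher. A choice by the control signal favours lower values on the other array, and the mirror count, taken over the 100 highest genes of the Tl 5 days array, was 31 higher and 7 lower. Slc7a13, a cystine transporter of the straight proximal tubule, had log2 signals of 19.14, 16.62 and 13.69, a difference of -5.45. Kap, an androgen-dependent protein known from mouse proximal tubule, had 18.80, 17.64 and 13.17. Dhrs7l1, whose name marks it as a short-chain dehydrogenase, had 19.25, 16.74 and 17.45. Other genes of this group stayed close to control. Eef1a1 (19.76 and 19.93 in the control and Tl 5 days groups), Actb (19.72 and 19.81), the endocytic receptor Lrp2 (18.82 and 18.69), Gpx3 (18.33 and 18.72) and Selenop (18.56 and 18.56) all differed by less than 0.40. The signal maximum of both arrays was 19.93, which limits any rise of the brightest genes.

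**Figure D1:**
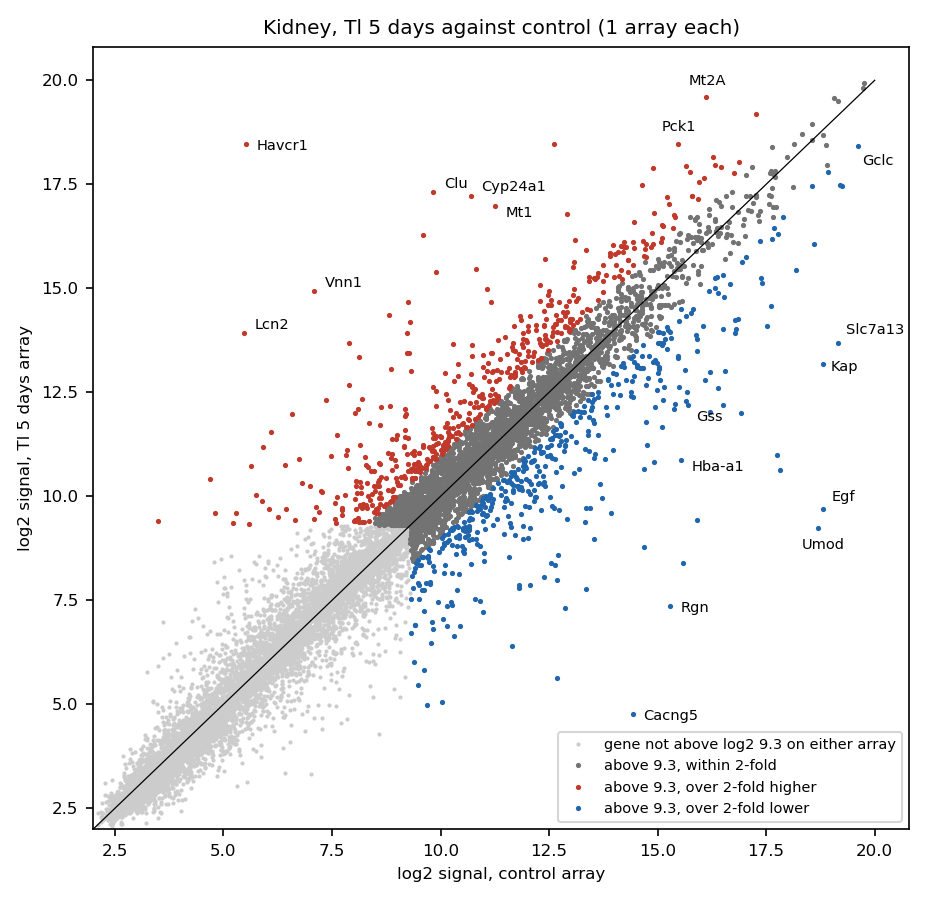
Log2 signal of each of the 15037 genes on the control array (x axis) and the Tl 5 days array (y axis), 1 array each. Grey points are the other genes, red and blue points lie above 9.3 on either array and were over 2-fold higher (495) or lower (439), and 17 genes of the text are named.

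The 15 deepest differences downward among genes above 9.3 came from several parts of the nephron. Cacng5, a gene of the calcium channel gamma and AMPA receptor regulator family, had log2 signals of 14.42, 7.83 and 4.77, a difference of -9.65. Umod, which encodes uromodulin, the main protein of normal urine, had 18.70, 16.07 and 9.24 (-9.46). Egf, the growth factor made by the same thick limb cells, had 18.81, 15.35 and 9.69 (-9.12). Rgn, regucalcin, a calcium-binding lactonase, had 15.29, 9.89 and 7.37 (-7.92), and Hnmt, which inactivates histamine by methylation, had 17.75, 13.94 and 10.98 (-6.77). Transport genes among the 15 were Slco1a6 (-7.19), an organic anion transporter, Slc7a12 (-7.18) and Slc7a13. The others were Ppp1r1a (-7.05), an inhibitor of protein phosphatase 1, Calb1 (-6.47), Tff3 (-5.89), Kap (-5.63), Dnase1 (-5.58), Gucy1b2 (-5.55) and the motor protein Kif5c (-5.26). Tff3, a secreted trefoil peptide, had 14.68, 13.22 and 8.79. In 5 of the 15 genes, Umod, Egf, Tff3, Kap and Slc7a13, more than 50% of the difference lay between the Tl 2 days and Tl 5 days arrays. The Tl 5 days signal was dim in 9 of the 15 (Cacng5, Umod, Rgn, Slc7a12, Ppp1r1a, Tff3, Dnase1, Gucy1b2 and Kif5c) and close to 9.3 in Calb1 and Egf (9.43 and 9.69), so the sizes of these differences rest on dim signals.

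The 15 largest differences upward included secreted and surface proteins of injured tubules. Havcr1, the injury molecule Kim-1, had log2 signals of 5.52, 18.47 and 18.46, Lcn2, which binds bacterial siderophores, had 5.47, 13.36 and 13.92, and Spp1, osteopontin, had 12.62, 19.11 and 18.48. Clu, an extracellular chaperone, had 9.83, 17.81 and 17.31. These 4 genes were at or near their 5-day signal already on the Tl 2 days array. Vnn1 and Tmem252 were not. Vnn1, pantetheinase, a surface enzyme of vitamin B5 recycling that releases cysteamine, had 7.09, 9.23 and 14.92 (7.84), and Tmem252, a membrane protein of poorly known function, had 9.60, 11.56 and 16.27 (6.67). Cyp24a1, the mitochondrial enzyme that inactivates vitamin D hormones, had 10.70, 16.19 and 17.23 (6.53), and its regulator Vdr had 11.34, 11.49 and 12.25. The other genes were Gdf15 (5.92), Niban1 (5.81), Gpnmb (5.73), Mt1 (5.72), Cyp4a1 (5.54), the canalicular-type export pump Abcc2 (5.48), Serpina3n (5.45) and Gabrp (5.42), a GABA receptor subunit. Havcr1, Lcn2, Vnn1, Gdf15, Niban1, Gpnmb, Cyp4a1, Serpina3n and Gabrp, 9 of the 15, were dim on the control array, between 3.49 and 9.25, so the sizes of their differences are uncertain.

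Of the 27 measured genes listed as markers of tubular injury, 22 passed 2-fold upward after 5 days and 1 downward, beside 5.37% and 4.87% of all genes, with a median difference of 2.35. Markers of an altered epithelial state were among them. Cd44, a hyaluronan receptor, was 31.3-fold higher and Plin2, which coats lipid droplets, 27.4-fold. Both were dim on the control array (7.35 and 7.89), so these 2 sizes are uncertain. Anxa2 was 7.34-fold higher, Krt8, a keratin of simple epithelia, 4.97-fold and Vim, the mesenchymal filament protein, 3.85-fold. Fstl1, a secreted glycoprotein listed with these genes, was 2.01-fold lower.

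The marker lists of the nephron differed by segment, and the distal lists were on balance lower. In bulk tissue, fewer cells of a type and less RNA per cell cannot be told apart. In the list of the thin limb and thick ascending limb, 9 of 15 measured genes were over 2-fold lower and 0 higher, with a median difference of -2.06, beside a median of 0.00 over all genes. Slc12a1, the sodium, potassium and chloride cotransporter that is the target of loop diuretics, had log2 signals of 17.60, 14.01 and 14.57. Kcnj1, the potassium channel that recycles potassium into the lumen, had 16.54, 14.05 and 13.01. The calcium-sensing receptor Casr (-3.63), the claudins Cldn10 (-2.79) and Cldn16 (-2.06), and Bsnd (-1.79), a chloride channel subunit, were also lower. For Slc12a1, Casr and Bsnd the Tl 5 days signal lay slightly above that of the Tl 2 days array, whereas for Umod, Egf, Kcnj1 and the claudins it lay below it.

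In the list of the distal convoluted and connecting tubule, 10 of 17 measured genes were lower and 3 higher, with a median of -1.47. The lower genes included the calcium handling proteins Calb1 (15.90, 11.72 and 9.43) and Slc8a1, the sodium and calcium exchanger (13.54, 10.85 and 8.97). Kl, klotho, the coreceptor of the phosphate hormone FGF23, had 15.68, 14.30 and 12.50, and Slc12a3, the thiazide-sensitive cotransporter, had 16.81, 15.36 and 14.01. Wnk1 (-1.47) and Stk39 (-2.04), kinases that switch this cotransporter on, were lower, while Wnk4 (1.40), the potassium channel subunit Kcnj16 (1.47) and the calcium channel Trpv5 (1.64) were higher. Trpv5 had 9.60, 13.03 and 11.24, so its highest signal was that of the Tl 2 days array.

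The collecting duct lists had smaller differences. Of 15 measured genes of principal cells, 8 were lower and 1 higher, with a median of -1.08. Aqp2, the vasopressin-regulated water channel, had 13.07, 10.99 and 10.55, and Nr3c2, the mineralocorticoid receptor, had 11.15, 9.29 and 9.67. The higher gene was Sgk1, a kinase that raises sodium uptake (12.49, 12.45 and 14.94). Of 15 measured genes of intercalated cells, 7 were lower and 0 higher, with a median of -0.94. The 7 lower genes included the anion exchanger Slc4a1 (-2.53), which red cells also carry, the ammonia transporter Rhcg (-1.91) and the proton pump subunit Atp6v1b1 (-1.82). Pendrin Slc26a4 (11.91 and 11.85 in the control and Tl 5 days groups) and Slc4a9 (13.15 and 13.14) of base-secreting cells differed little. Within 2-fold also lay the dim Hmx2 (-0.79) and Insrr (-0.55) and the proton pump subunit Atp6v1g3 (0.28). Whether the 2 kinds of intercalated cell differed was not tested.

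**Figure D2:**
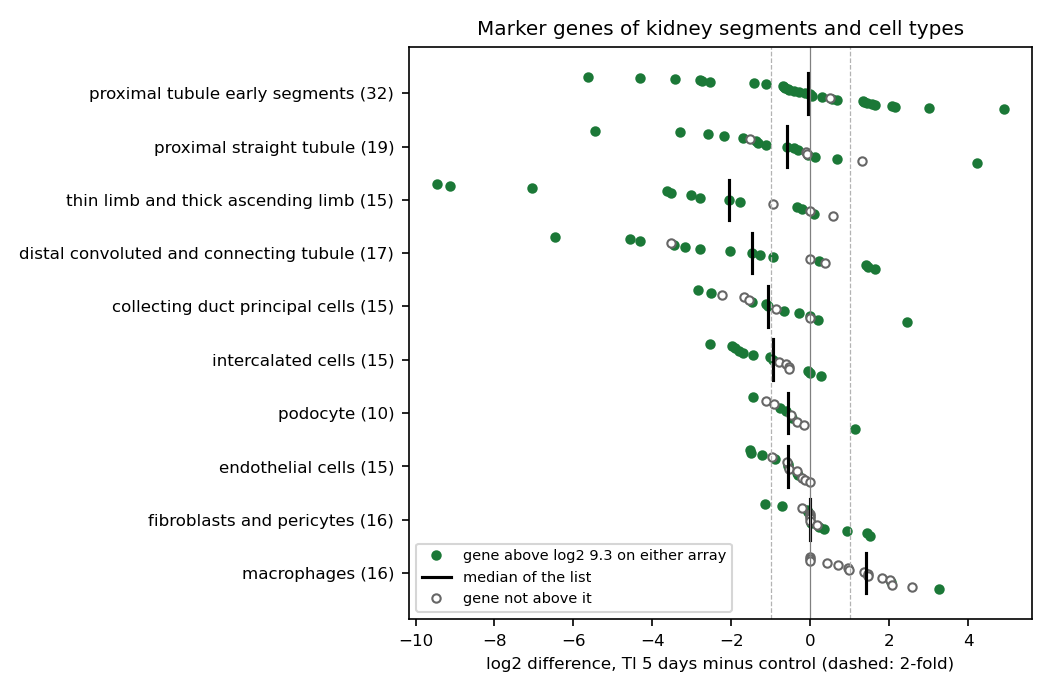
Log2 difference, Tl 5 days minus control, of each measured marker gene of 10 kidney segments and cell types, with the number of genes in brackets. Filled points are genes above 9.3 on either array, open points are dim genes, and bars are medians, which run from -2.06 in the thin limb and thick ascending limb to 1.42 in macrophages.

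The proximal tubule held large differences in both directions. In the list of early segments, 9 of 32 measured genes were higher and 8 lower with a median of -0.06, and in the straight tubule list 2 of 19 were higher and 9 lower with a median of -0.60. Of the brush border enzymes, Anpep, aminopeptidase N, had log2 signals of 17.51, 15.09 and 14.08, and Mme, neprilysin, had 18.19, 17.23 and 15.44. Gatm, which makes the creatine precursor, had 18.61, 17.56 and 16.07, and the sodium and proton exchanger Slc9a3 had 12.56, 9.17 and 9.76. In the same list the protein endocytosis receptor Cubn (14.45, 15.40 and 16.60), the bicarbonate transporter Slc4a4 (15.78, 15.52 and 17.22) and the neutral amino acid transporter Slc6a19 (9.25, 9.18 and 10.61) were higher. The water channel Aqp1 (17.71, 16.44 and 17.82) was over 2-fold below control on the Tl 2 days array but not on the Tl 5 days array.

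Transporters with related cargo differed in direction. In the list of carriers of organic ions and metals, 7 of 31 measured genes were higher and 9 lower. Among drug and organic ion carriers of the blood side, Slc22a2, the organic cation transporter OCT2, had 16.50, 14.30 and 12.19. Slco4c1, a carrier of cardiac glycosides and uremic anions, had 12.55, 9.53 and 8.39, whereas the organic anion transporter Slc22a8, OAT3, was higher (14.74, 14.33 and 16.07) and Slc22a6, OAT1, differed by 0.04. Slc22a25 differed by -4.69. Of the ATP-driven export pumps of the luminal side, the higher ones were Abcc2 (9.90, 13.58 and 15.39), Abcb1b (11.07, 14.07 and 14.99) and Abcb1a (9.91, 11.53 and 11.46), while Abcc4 differed by 0.43 and Abcg2 was lower (-1.48). For phosphate, the main renal cotransporter Slc34a1 had 17.63, 16.44 and 16.20, whereas Slc34a2, known from lung and intestine, had 10.82, 15.53 and 15.45 and was 24.9-fold higher. For sugars, the glucose carrier Slc2a2 had 9.296, 12.59 and 14.20, 29.9-fold above a dim control signal at 5 days. Slc2a1 (-1.36) and the fructose carrier Slc2a5 (-2.78) were lower. Slc2a5 was chosen after its values were seen. Close relatives of these families can share probe sequence, which was not tested.

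Metallothioneins are small cysteine-rich proteins that bind zinc, copper, cadmium and other thiol-seeking metals, and the factor MTF1 drives them through metal response elements in their promoters when free zinc rises. Mt1 had log2 signals of 11.26, 16.34 and 16.98 (52.6-fold at 5 days), and Mt2A had 16.10, 19.48 and 19.59 (11.2-fold), the latter among the 10 highest genes of the Tl 5 days array and near its maximum. Mt3, the brain form, was dim on all arrays (3.23, 3.38 and 3.38). Mt1 and Mt2A are near-identical in part, and their signals may not be independent. Slc30a1, the zinc exporter of the plasma membrane and another known target of MTF1, lay the other way, at 12.99, 12.26 and 11.45 (-1.55). Of the zinc importers, Slc39a8 had 12.31, 10.47 and 9.66, and Slc39a14, which acute inflammation raises in liver, had 8.57, 10.88 and 10.35.

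The promoters of Mt1, Mt2A and Slc30a1 are shown because these genes share the metal response element but differed in direction. They are RefSeq sequences of assembly GRCr8, from 250 bases before to 50 bases after the annotated start, with matches to the core TGCGCNC or TGCACNC on either strand in capitals.
Mt1, chr19:10832926-10833225, minus strand: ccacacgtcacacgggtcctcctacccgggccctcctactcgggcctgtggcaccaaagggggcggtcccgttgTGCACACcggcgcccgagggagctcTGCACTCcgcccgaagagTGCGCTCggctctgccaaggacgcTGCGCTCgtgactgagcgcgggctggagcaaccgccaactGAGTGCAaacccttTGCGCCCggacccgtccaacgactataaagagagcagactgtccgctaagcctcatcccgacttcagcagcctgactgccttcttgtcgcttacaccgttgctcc
Mt2A, chr19:10838659-10838958, minus strand: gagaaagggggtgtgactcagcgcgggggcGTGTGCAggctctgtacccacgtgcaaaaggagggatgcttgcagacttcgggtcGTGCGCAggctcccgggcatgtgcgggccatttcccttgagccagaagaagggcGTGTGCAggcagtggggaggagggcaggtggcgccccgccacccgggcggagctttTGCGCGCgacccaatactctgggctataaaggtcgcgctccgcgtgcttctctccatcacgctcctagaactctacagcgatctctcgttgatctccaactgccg
Slc30a1, chr13:106021769-106022068, plus strand: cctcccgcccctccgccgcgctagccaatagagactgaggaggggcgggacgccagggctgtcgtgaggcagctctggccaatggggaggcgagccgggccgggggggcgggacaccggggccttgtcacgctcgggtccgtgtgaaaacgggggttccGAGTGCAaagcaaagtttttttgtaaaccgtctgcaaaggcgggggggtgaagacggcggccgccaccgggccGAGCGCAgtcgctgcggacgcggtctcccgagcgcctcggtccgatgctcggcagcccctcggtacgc
Counted without overlap, Mt1 had 6 matches between positions -176 and -49 relative to the start, Mt2A had 4, Mt3 had 3, Slc30a1 had 2 and Slc39a8 had 0. Of 27457 promoters of the same length, 25% held at least 1 match, 5.70% at least 2, 0.251% at least 4 and 0.0219% at least 6. A match is a run of letters and not a measured binding site.

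Most of the listed genes that glucocorticoids induce were higher at 5 days, and most were not at 2 days. Of the 25 listed target genes, all measured, after 5 days 16 were over 2-fold higher and 0 lower, with a median of 2.41, whereas in the Tl 2 days group 6 were higher and 2 lower with a median of -0.09. Fkbp5, a chaperone partner that restrains the receptor, had log2 signals of 8.63, 9.10 and 12.14, and Per1, a clock gene with a receptor site in its promoter, had 8.97, 9.23 and 11.38. Tsc22d3, the leucine zipper GILZ, had 7.72, 6.68 and 9.72, and Zbtb16, a zinc finger factor, had 5.28, 4.91 and 9.60. Sgk1 (above) and Klf9 (11.94, 11.84 and 13.24) followed the same order. Errfi1, an inhibitor of the EGF receptor, had 12.92, 14.43 and 16.77. Mt1, Mt2A and Lcn2 belong to this list and also to the metal or injury lists, and these 3 were already high on the Tl 2 days array. Igfbp1 (9.27, 12.46 and 13.45), Angptl4 (4.80, 7.63 and 9.61) and Errfi1 were over 2-fold higher there too. Pck1 and Pdk4 belong to this list and also to the glucose or fatty acid lists. Within 2-fold at 5 days stayed 9 of the 25, among them the dim Tat (0.00) and Sds (0.00), and Glul (-0.33). The receptor gene Nr3c1 differed by -0.34. It and Hsd11b1 were chosen after their values were seen. Hsd11b1, which regenerates active glucocorticoid, had 15.03, 14.91 and 15.64, and Hsd11b2, which inactivates it in the distal nephron, had 13.40, 11.88 and 12.33.

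Genes of glucose production, which the kidney uses in fasting and acidosis, did not share 1 direction. Over the whole list of gluconeogenesis and glycolysis, 5 of 26 measured genes were higher and 5 lower, with a median of -0.13. Pck1, the rate-limiting enzyme of gluconeogenesis, had log2 signals of 15.48, 15.45 and 18.47 and was 7.99-fold higher at 5 days. G6pc1, which releases free glucose, had 12.39, 11.38 and 14.46, below control at 2 days and 4.21-fold above it at 5 days. In the same pathway, Slc37a4, which carries glucose-6-phosphate to G6pc1, was lower (10.56, 9.22 and 9.26), and fructose bisphosphatase Fbp1 differed by -0.40. Slc5a12, a lactate cotransporter of the brush border chosen after its values were seen, had 13.09, 13.05 and 16.16. Pdk4, which spares pyruvate by inhibiting its oxidation, had 6.73, 6.54 and 10.88. Among sugar breakdown genes, ketohexokinase Khk had 11.56, 9.17 and 9.52, the pyruvate kinase Pklr differed by -1.52, Ldhb, the lactate-oxidising form, by -1.32, and Ldha by 1.73. Other enzymes of glycolysis stayed within 2-fold, among them Gapdh (0.63), Aldoa (0.62) and Pgam1 (0.66).

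The Pck1 promoter is known for a cyclic AMP response element, through which glucagon and acidosis act, and the sequence is shown with the match to TTACGTCA or TGACGTCA (either strand) in capitals.
Pck1, chr3:182348322-182348621, plus strand, RefSeq GRCr8: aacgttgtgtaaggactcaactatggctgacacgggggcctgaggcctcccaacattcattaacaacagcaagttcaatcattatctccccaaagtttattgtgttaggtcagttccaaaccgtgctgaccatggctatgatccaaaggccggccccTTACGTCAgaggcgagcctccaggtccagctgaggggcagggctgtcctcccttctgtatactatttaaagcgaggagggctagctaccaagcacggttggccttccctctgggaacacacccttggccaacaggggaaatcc
The match lay at positions -93 to -86 relative to the start. At least 1 match was held by 2.78% of the 27457 promoters. The same windows of G6pc1, Per1, Fkbp5, Sgk1, Tsc22d3, Pdk4 and Igfbp1 held 0, which says only that these letters are not in those 300 bases.

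Fatty acid genes were also counted, many of which the receptor PPAR alpha is known to induce. Of 26 measured genes of fatty acid oxidation and ketone synthesis, 9 were higher and 3 lower at 5 days, with a median of 0.61, against 1 higher and 4 lower at 2 days. The thioesterase Acot2 had log2 signals of 11.16, 12.01 and 14.67, the isomerase Eci1 8.20, 9.82 and 12.34, and the thiolase Acaa2 10.73, 10.90 and 13.36. Cpt1a, the gate of mitochondrial fatty acid entry, had 12.89, 13.35 and 14.58. The lower genes were Bdh1 (-1.99), Echs1 (-1.25) and Acat1 (-1.01), of which Bdh1 and Acat1 act in ketone body use. The dehydrogenases Acadm (-0.91) and Hadh (-0.29) lay below control within 2-fold. In the list of peroxisome and omega oxidation, 7 of 24 were higher and 3 lower with a median of -0.06. The higher genes included the omega hydroxylase Cyp4a1 (8.81, 11.30 and 14.35), the peroxisomal Ehhadh (14.43, 13.54 and 16.11) and Pex11a (2.02), a peroxisome division factor, while Hao2 (-1.10) and Fabp3 (-1.34) were lower. The P450 enzymes Cyp2e1 (9.22, 9.56 and 13.45) and Cyp2c23, an arachidonic acid epoxygenase (17.25, 17.64 and 19.20), were close to control at 2 days.

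**Figure D3:**
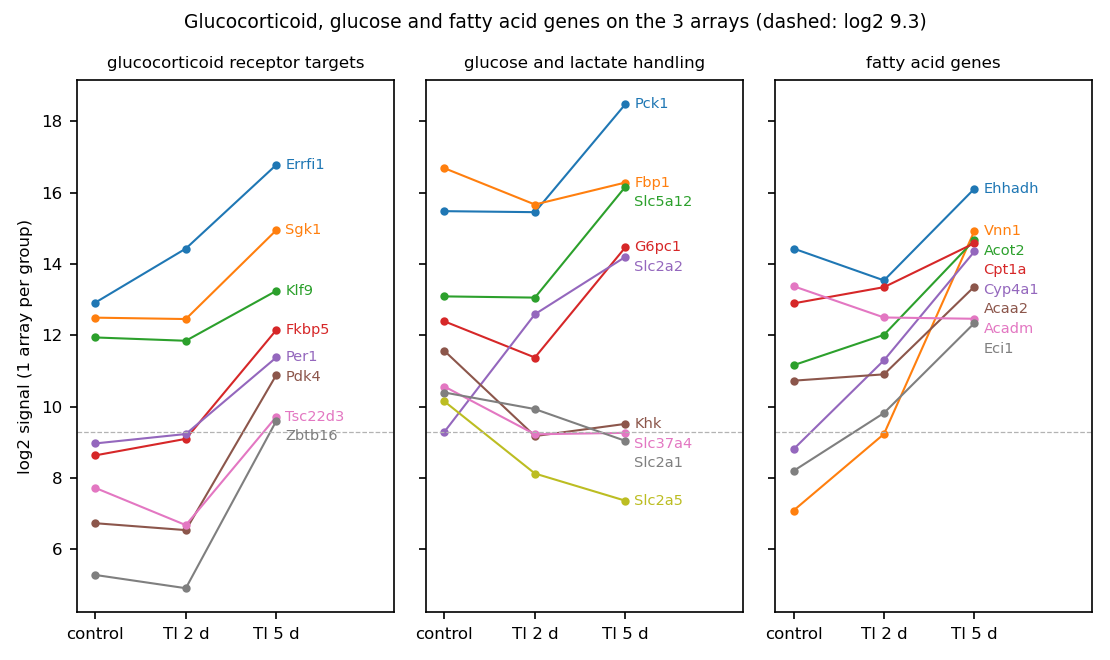
Log2 signals of glucocorticoid targets, glucose and lactate genes and fatty acid genes on the 3 arrays, 1 array per group. Several lines are flat or fall from control to Tl 2 days and then rise, for example Pck1 (15.48, 15.45 and 18.47) and Fkbp5 (8.63, 9.10 and 12.14), while Khk (11.56, 9.17 and 9.52), Slc37a4 and Acadm lie lower in both Tl groups.

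Glutathione, the main soluble thiol of cells, is made from cysteine, glutamate and glycine, and the kidney exports and takes it back in quantity. The synthesis enzymes had lower signals at 5 days. Gclc, the catalytic subunit of the rate-limiting ligase and among the 10 highest genes of the control array, had log2 signals of 19.63, 19.20 and 18.42. Gclm, its regulatory subunit, had 19.21, 18.50 and 17.48. Gss, the second enzyme, had 15.69, 13.85 and 12.21, 11.2-fold lower, and Ggct, which breaks down gamma-glutamyl peptides in the same cycle, had 15.48, 14.25 and 13.37. Gss and Ggct were chosen after their values were seen. The other cycle genes looked at with them were Ggt1 (17.57, 17.14 and 17.04), Gsr (14.30, 14.54 and 14.47) and Oplah (12.78, 11.58 and 13.35), none of which differed by 2-fold at 5 days.

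Genes that supply or use cysteine lay in both directions. No list of them was fixed. Of the enzymes named, Cth, Cbs, Cdo1, Csad and Mat2a were lower and Bhmt was higher. Cth, which releases cysteine from cystathionine, had 15.89, 14.07 and 13.87, and Cbs, the preceding enzyme, had 11.07, 10.43 and 9.56. Cdo1, cysteine dioxygenase, had 13.44, 10.57 and 9.71, and Csad, the next enzyme toward taurine, had 12.02, 8.91 and 9.01. Mat2a, which makes S-adenosylmethionine, had 17.37, 15.33 and 15.24. Cdo1, Csad and Mat2a were chosen after their values were seen. Carriers that bring in cystine differed among themselves. Slc7a11, the cystine and glutamate exchanger, was dim (5.00, 7.89 and 7.79), its partner Slc3a2 had 13.37, 13.91 and 14.51, and the luminal Slc7a9 had 10.67, 11.98 and 12.23, all over 2-fold higher, while Slc3a1, the partner of Slc7a9, differed by -1.12 and Slc7a13 by -5.45. Bhmt, which remethylates homocysteine, lay higher at 9.89, 10.13 and 12.16, as did Hpd of tyrosine breakdown (15.66, 16.13 and 17.95). Over the whole list of amino acid catabolism, 3 of 35 measured genes were higher and 7 lower with a median of -0.25.

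The wider list of Nrf2 targets and glutathione genes was split. Of 33 measured genes, 12 were higher and 6 lower, with a median of 0.39. Of the 24 above 9.3, 7 were higher and 6 lower. At 2 days 12 of the 33 were higher and 3 lower. Higher were the peroxidases Gpx1 (1.72) and Gpx4 (1.04), the transferase Gstp1 (12.06, 14.73 and 14.32), Prdx1 (1.02), and sulfiredoxin Srxn1 (3.25), which repairs peroxiredoxins. The extracellular dismutase Sod3, chosen after its values were seen, had 14.89, 16.63 and 17.90. Lower, beside Gclc and Gclm, were Osgin1 (13.54, 10.65 and 10.92), Me1 (-1.77), Akr7a3 (-1.57) and Gsta1 (-1.08). Nqo1, the usual reporter of Nrf2, was dim on both arrays (1.09).

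**Figure D4:**
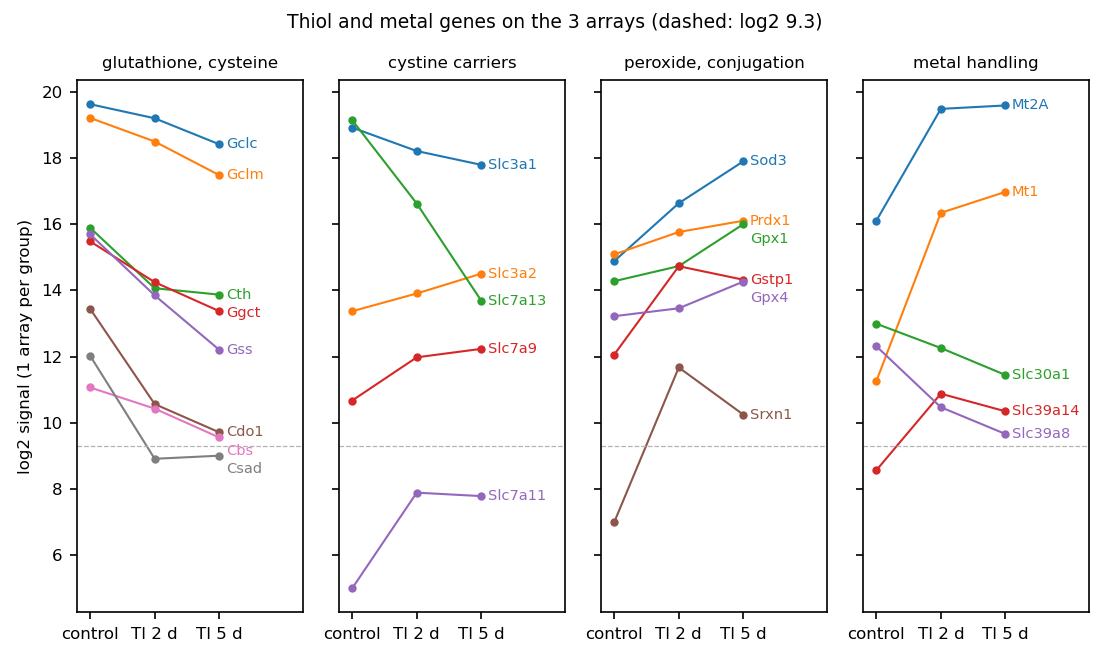
Log2 signals of thiol, peroxide and metal genes on the 3 arrays, 1 array per group. The genes were picked with their values in view. The 8 enzymes of glutathione and cysteine handling shown lie lower in the Tl 5 days group than in control, of 5 cystine carriers 3 lie higher and 2 lower, the 6 peroxide and conjugation genes shown lie higher, and Mt1 (11.26 and 16.98) and Slc30a1 (12.99 and 11.45) lie on opposite sides.

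The ribosome lists differed between cytoplasm and mitochondria. Of 68 measured genes of cytoplasmic ribosomal proteins, all above 9.3 on either array, 59 were over 2-fold higher, against 10.6% of all genes above that limit, and 0 were lower. Their differences ran from 0.37 to 2.40 with a median of 1.48. The largest were those of Rps16 (12.30, 14.20 and 14.70), Rpl22 (11.85, 13.32 and 14.24), Rpl10a (7.08, 8.76 and 9.46) and Rps20 (2.36). Among 33 measured translation factors 11 were higher and 0 lower, with a median of 0.80, led by Eef1b2 (2.29), Eif4a1 (1.67) and Tpt1 (1.66). Npm1, a nucleolar chaperone, had 14.92, 16.46 and 16.80, in a list of ribosome assembly genes in which 9 of 40 were higher and 0 lower. Of 66 measured genes of mitochondrial ribosomal proteins, 1 was higher (Mrpl52, 1.38) and 0 lower, with a median of 0.00, and 22 of them were above 9.3. Ribosomal protein genes have many processed pseudogenes that share their sequence, and their part in the signal was not tested.

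Messenger RNAs of cytoplasmic ribosomal proteins begin with a run of pyrimidines, the terminal oligopyrimidine tract, through which their translation follows growth signals. The annotated starts are shown for the ribosomal protein genes with the largest differences that had an entry in the RefSeq table (GRCr8), and for Mrpl17, a mitochondrial ribosomal protein gene, with 25 bases on each side of the start and the longest run of C and T in capitals.
Rps16, chr1:92770633-92770682, plus strand: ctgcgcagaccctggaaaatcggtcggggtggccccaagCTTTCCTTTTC
Rpl22, chr5:168117936-168117985, plus strand: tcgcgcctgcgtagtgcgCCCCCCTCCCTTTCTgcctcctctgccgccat
Rpl10a, chr20:6390508-6390557, plus strand: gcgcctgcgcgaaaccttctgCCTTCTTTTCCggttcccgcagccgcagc
Rpl24, chr11:58128381-58128430, minus strand: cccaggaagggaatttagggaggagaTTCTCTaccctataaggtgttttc
Mrpl17, chr1:169575675-169575724, minus strand: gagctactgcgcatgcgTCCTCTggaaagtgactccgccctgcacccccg
A run of at least 8 was present in this 50-base window for 49 of 58 cytoplasmic ribosomal protein genes with an entry (84.5%), 11 of 29 translation factor genes (37.9%) and 13 of 55 mitochondrial ribosomal protein genes (23.6%), beside 18.2% of the 12435 genes of the array with an entry and 19.3% of all 27457 promoters. The run was counted anywhere in the window, so these shares are not shares of messenger RNAs that begin with it. In Rps3 a run of 14 began at -21 and in Rpl7a a run of 19 at -25, both ending before the annotated start. The run of Rps16 began 14 bases after the annotated start. Rpl24, with a run of 6 at the annotated start, differed by 2.13, so the run in this window did not mark every member that was high.

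Genes of mitochondrial energy production were slightly lower as lists. In complex I, 1 of 32 measured genes was over 2-fold lower (Ndufs4, -1.02) and 28 lay below control, with a median of -0.31. In complexes II to V, 0 of 35 passed 2-fold and 29 lay below control, with a median of -0.24 and Cycs, cytochrome c, at -0.92. Over all genes above 9.3 the median was 0.00, with quartiles of -0.27 and 0.42, and the share below control was not counted. In the tricarboxylic acid cycle list, 5 of 23 were lower and 0 higher with a median of -0.30. These were Idh2 (15.13, 13.58 and 13.67), Pdha1 (-1.24), Mdh1 (-1.20), Idh3g (-1.06) and the cytosolic Me1, while Suclg2 differed by 0.93. Taken singly, most of these differences lay between the quartiles of the negative control probe sets above 9.3, which were -0.38 and 0.52. The quartiles of the positive control probe sets were -0.07 and 0.54. Such quartiles describe single probe sets and do not measure a shift shared by a list.

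Stress lists differed in kind. Of 30 measured targets of Atf4, the factor of the integrated stress response, 14 were higher and 1 lower, with a median of 0.85. Only 11 of the 30 were above 9.3, of which 6 were higher and 1 lower. Asns, asparagine synthetase, had log2 signals of 8.03, 10.68 and 12.01, and Sesn2, a brake on growth signalling, had 10.78, 10.52 and 12.58. The lower gene was Cth. Psat1 (-0.49), Phgdh (0.40) and the dim Ddit3 (-0.09), Ddit4 (-0.14) and Trib3 (0.03) stayed within 2-fold. Of 24 measured p53 targets, 9 were higher and 1 lower with a median of 0.62, and 14 stayed within 2-fold. Among the higher were the growth arrest gene Gadd45a (1.78), Ccng1 (1.87) and the dim Cdkn1a (3.64). Tnfrsf12a (6.59, 12.06 and 11.97), whose listing as a p53 target was not checked, was higher too. Mdm2 (0.60) and the dim Zmat3 (0.34), Fas (0.24) and Bax (0.11) stayed within 2-fold, while Rrm2b (-1.21) was lower. In contrast, 0 of 24 chaperone genes of the endoplasmic reticulum and 0 of 20 heat shock genes passed 2-fold in either direction, with medians of 0.09 and 0.23. Of 28 measured iron and ferroptosis genes, 12 were higher and 2 lower, including the ferroxidase Cp (12.29, 13.32 and 15.08) and the lipid ligase Acsl4 (2.51) on the higher side and the transferrin receptor Tfrc (12.40, 12.62 and 10.73) on the lower.

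**Figure D5:**
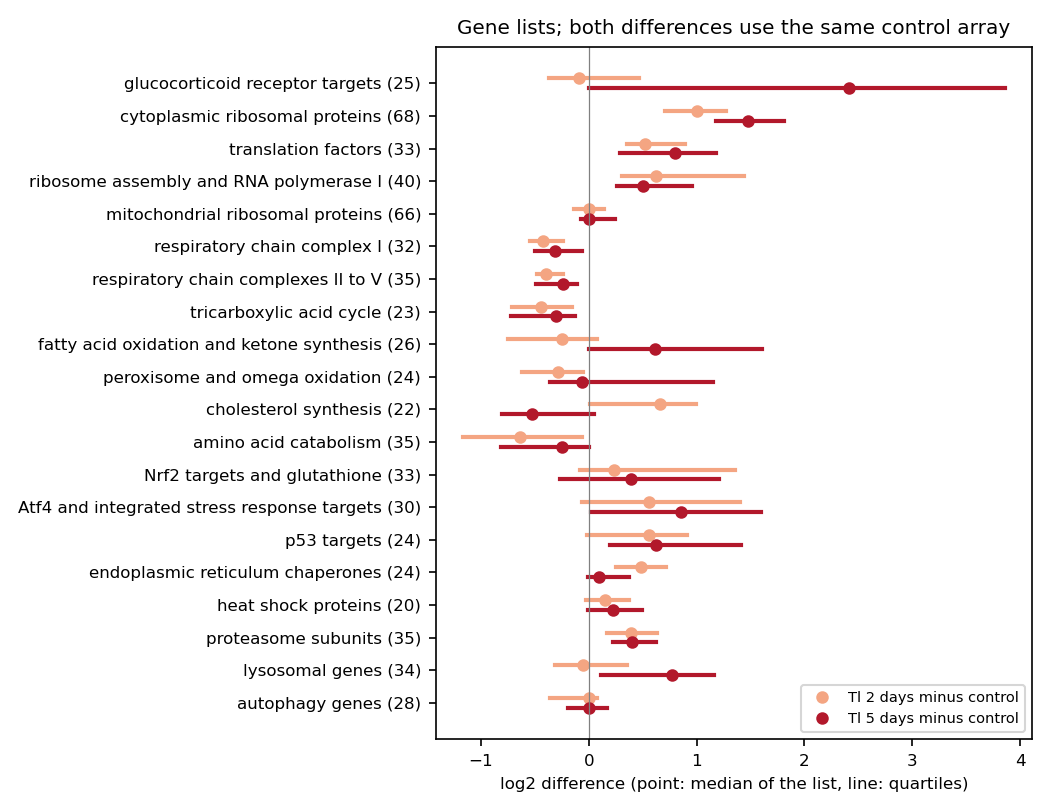
Median and quartiles of the log2 differences of 20 gene lists, Tl 5 days minus control in dark red and Tl 2 days minus control in orange, with the number of measured genes in brackets. Both differences use the same control array, and the 5-day medians run from -0.52 for cholesterol synthesis to 2.41 for glucocorticoid receptor targets.

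Lists of other cells in the kidney were also counted. Of 16 measured macrophage genes, 9 were over 2-fold higher and 0 lower with a median of 1.42, but only 2 were above 9.3. These were Lyz2, lysozyme (15.75, 16.48 and 17.81), and Mrc1, the mannose receptor (6.25, 7.67 and 9.50). Of the genes that define the type, Cd68 had 6.96, 8.51 and 9.02, Csf1r 6.65, 7.81 and 7.62 and C1qa 7.62, 7.77 and 8.57, whereas Adgre1, at 6.14, and Cd163, at 4.53, had the same signal on all 3 arrays. The lists of neutrophils, T cells and B cells had no gene above 9.3, with 2, 0 and 1 genes higher and 1, 1 and 0 lower. Of 34 measured lysosomal genes, 10 were higher and 0 lower, led by the cathepsins Ctsd (14.65, 18.23 and 17.48), Ctss (8.27, 8.53 and 10.76) and Ctsc (1.85). Macrophages carry many lysosomal genes too, and their part in this list was not tested.

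Of 15 measured endothelial genes, 3 were over 2-fold lower and 0 higher, with a median of -0.56. Cdh5, the junction protein of these cells, had log2 signals of 11.66, 11.98 and 10.14, Emcn 13.41, 12.58 and 11.91, and the VEGF receptor Kdr 11.94, 11.67 and 10.73, while Pecam1 had 9.02, 8.80 and 8.80. In the podocyte list of 10, Podxl, which keeps the filtration slits open and is also made by endothelium, had 15.09, 15.07 and 13.63, Nphs1 differed by -0.62 and the dim Wt1 by -1.12, and Cd2ap was higher (1.12). In the list of fibroblasts and pericytes, 2 of 16 were higher, Dcn (1.44) and Tagln (1.52), and 1 lower.

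Haemoglobin genes were lower at 5 days. In the erythroid list, 3 of 8 measured genes were over 2-fold lower and 0 higher, with a median of -0.35. Only these 3 were above 9.3, and they were Hba-a1, Hbb and Slc4a1. Slc4a1 (13.56, 9.96 and 11.03) is not a haemoglobin gene and is also counted in the list of intercalated cells. Hba-a1 had log2 signals of 15.55, 14.58 and 10.86, Hbb had 14.91, 14.09 and 10.83, and Hbbl1, a gene chosen after its values were seen, had 12.64, 11.99 and 8.34. Alas2, the haem synthesis enzyme of red cell precursors, was dim on all arrays (5.02, 4.77 and 4.58). Of the genes of plasma proteins, 3 were lower too, the vitamin D carrier Gc (11.80, 9.60 and 7.88), the albumin relative Afm (12.07, 10.32 and 7.86) and the protease trap Pzp (12.39, 11.29 and 8.06), all chosen after their values were seen. Whether blood content differed between the kidneys was not tested. Other plasma protein genes lay the other way. Of 31 measured genes of the acute phase, complement and coagulation, 14 were higher and 0 lower, among them the fibrinogen chains Fga (8.11, 15.76 and 13.34) and Fgb (5.22, 11.95 and 9.36), both lower at 5 than at 2 days.

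Genes of growth and division completed the comparison. Of 35 measured genes of DNA replication and mitosis, 7 were higher at 5 days and 31 at 2 days, with medians of 0.41 and 2.83, and only 5 were above 9.3 in the control or Tl 5 days group. Mki67, the proliferation marker, had log2 signals of 8.71, 13.91 and 9.76, and Rrm1, of deoxynucleotide synthesis, had 11.75, 13.80 and 11.71, whereas the spindle motor Kif11 had 10.17, 12.17 and 12.30. Growth factor genes lay in both directions, 8 of 39 higher and 8 lower. Beside Egf, the binding protein Igfbp5 (16.40, 14.62 and 12.61) and the receptor Erbb4 (-1.51) were lower, and Fgf1 (12.55, 14.52 and 14.71) and the hepatocyte growth factor receptor Met (1.29) were higher. Of 22 measured genes of cholesterol synthesis and its control, 5 were lower and 0 higher at 5 days with a median of -0.52, against 0 lower and 6 higher at 2 days with a median of 0.66. Insig1, which holds back the pathway's activator, had 10.83, 12.40 and 9.77, Idi1 had 10.36, 11.20 and 9.01, and Fdft1 had 12.76, 12.91 and 11.47.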

How the data were processed

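RNA of rat kidney was measured on Clariom S arrays, 1 for each group. Per the study methods, the authors processed the arrays with Transcriptome Analysis Console, and the deposited table holds a log2 signal of every probe set. The version, the summarization and the normalization are not given in the sources used here, and the logarithm was taken as base 2. Of 24834 probe sets, 15049 had a single symbol in the platform's annotation, 0 had several and 9785 were not named here. All 15049 were found under the same symbol in the RefSeq annotation. Where a gene had several, their mean was used (10 genes), which left 15037 genes.

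The quantities computed were the difference of log2 signals, counts past a 2-fold limit, and the median difference and counts of each of 53 gene lists, in which 1308 of 1467 distinct genes were measured. No test was run because each group had 1 array, which is also what limits the precision. The gene lists and the genes named were chosen with earlier results of these data known, so no list is independent evidence. Named were the 15 largest differences in each direction among genes above 9.3 on either array, up to 5 such members of each list with members that define its role, the 10 highest genes of either array, and genes past 2-fold in opposite directions at 2 and 5 days. Genes said to be chosen after their values were seen, and the limit genes Siah1 to Zkscan3, fall outside this rule, as does Oplah. Further list members are named for their role or as the members past 2-fold on the rarer side, and these were also picked with their values in view. Promoter windows came from a RefSeq table of assembly GRCr8 and were searched on both strands, and 12435 of the genes had an entry. The counting steps were tested on simulated arrays with known changes. Alternatives were quantile normalization, centring, other signal and fold limits, a floor at 9.3, and the probe set with the highest mean. The scripts ran under Python 3.11.15 with pandas 2.3.3, numpy 2.4.6 and, for the figures, matplotlib 3.10.9.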

Additional observations from a re-analysis of the deposited data

Results flagged for a closer look

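The 6 genes above 9.3 on the control or Tl 5 days array that passed 2-fold in opposite directions in the 2 Tl groups are given here, with 1 array each, and that contrast was not tested. G6pc1 (-1.01 at 2 days and 2.08 at 5 days on the log2 scale), Tsc22d3 (-1.04 and 1.99), Zhx3 (-1.11 and 1.45), Fmo2, a monooxygenase (-1.08 and 1.36), and Pbld1 (-1.36 and 1.24) were lower and then higher than control. Insig1 was higher and then lower (1.56 and -1.06). Among dim genes, Ptprq (2.07 and -2.11) and Serpinb9 (1.19 and -1.12) did the same.

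Lists whose medians lay on opposite sides of 0, with a 5-day median of more than 0.5 in size, were those of fatty acid oxidation and ketone synthesis (-0.25 at 2 days and 0.61 at 5 days), cholesterol synthesis (0.66 and -0.52), glucocorticoid receptor targets (-0.09 and 2.41) and lysosomal genes (-0.06 and 0.77). These contrasts were not tested either.

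Outside the named genes, 1709 transcript probe sets without a symbol were above 9.3 on either array. Of these, 229 (13.4%) passed 2-fold upward and 127 (7.43%) downward at 5 days, beside 10.6% and 9.39% of the genes with a symbol above 9.3. The largest differences were 8.04, from 6.61 to 14.64, and -9.90, from 16.95 to 7.06. What these probe sets measure is not known here.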

How the results depend on the processing

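No paired analysis was possible because each group had 1 array, and no replicate could be left out. Quantile normalization of the 3 arrays, centring and the choice of the probe set with the highest mean left the 4 counts of genes higher and lower within 1.5 times their value and all 53 list medians and 350 gene differences within 1.5-fold, a tolerance chosen after the values were seen. Of the counts of list members, complex I had 2 lower genes in place of 1 under quantile normalization and centring, and B cells had 0 higher genes in place of 1 under centring. Centring moved every difference by -0.05. The medians of 46 of 53 lists kept their side of 0 under quantile normalization and centring, and the other 7 were between 0.00 and 0.05 as reported. Limits of 1.5-fold and 3-fold in place of 2-fold gave 1686 and 328 genes higher and 1499 and 289 lower over all genes, and 901 and 239 higher and 713 and 210 lower above 9.3. With signals below 9.3 raised to 9.3, 420 genes were higher and 376 lower over all genes.

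That floor also moved list medians, to 1.12 for tubular injury markers, 1.31 for glucocorticoid receptor targets and -0.19 for intercalated cells, and to 0.00 for keratins and annexins, collecting duct principal cells, Atf4 targets, p53 targets, iron handling and ferroptosis, immediate early genes, acute phase genes and macrophages. The floor takes away, by construction, the part of a difference below 9.3, and 66 of the 350 gene differences moved by more than 1.5-fold. Over all measured members, the median was 0.67 for keratins and annexins and 0.70 for immediate early genes. It was 0.75 for acute phase genes, 0.28 for chemokines and cytokines and -0.35 for erythroid genes. Only 3 of 8 erythroid genes were above 9.3. With members above 9.3 on either array alone the medians were 3.83 for tubular injury markers, 1.53 for keratins and annexins, -2.91 for the thick ascending limb, 1.29 for p53 targets, 1.76 for immediate early genes, 2.998 for glucocorticoid targets, 2.64 for acute phase genes, 1.08 for chemokines and cytokines and -4.09 for erythroid genes. With members above 9.3 on both arrays they were -2.79 for the thick ascending limb, -1.72 for intercalated cells and -4.09 for erythroid genes. Above 11 on either array they were 2.31 for keratins and annexins, -3.53 for the thick ascending limb, -1.77 for intercalated cells, 1.49 for p53 targets, 1.34 for immediate early genes, 2.998 for glucocorticoid targets, 2.49 for acute phase genes, 1.14 for chemokines and cytokines, -1.36 for endothelial cells and -4.09 for erythroid genes. These limits change which members enter a median, and no other cause was tested. With 1 array a group the spread between rats, and between arrays of the same RNA, is unknown, so no setting could bring a difference past a test. Signals below 9.3 limit the size of differences, the brightest genes lie near the maximum of the arrays, and the normalization before deposit is not given in the sources used here.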
